A study of Sus scrofa with 12 samples.

Results

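Glycolysis turns glucose into pyruvate, and several of its steps can be run by more than 1 enzyme, each encoded by its own gene. The results below describe 10 such genes in pig back fat. LDHA and LDHB encode lactate dehydrogenase, HK1 and HK2 hexokinase, PFKL and PFKP phosphofructokinase, and PKM pyruvate kinase. PFKFB1, PFKFB2 and PFKFB3 encode enzymes that set the level of fructose 2,6-bisphosphate. The 10 genes were found by symbol among the 24358 pig Ensembl gene IDs of the count table. Each symbol matched 1 ID, and all 10 passed the filter on low counts. LDHB and PFKFB1 were chosen by their measured breed difference at 9 d. The other 8 encode other forms of these enzymes or enzymes of other steps of glycolysis. They too were chosen with earlier results of these data known. Every value of the 10 genes in the breed contrast at 9 d is therefore given as a description. For LDHB and PFKFB1 the contrasts between ages are descriptions too. The breed contrast at 80 d uses other libraries and was tested for all 10 genes, although the whole table had been analysed before the genes were chosen.

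RNA-seq was done on subcutaneous fat from the middle of the back of Guangdong small-eared pigs (GS), a local breed of southern China, and Yorkshire pigs (YK), a breed raised commercially. The groups were GS at 80 d (GS_80d), YK at 80 d (YK_80d), GS at 9 d (GS_9d) and YK at 9 d (YK_9d), with 3 libraries in each. All pigs carry the genotype WT in the labels, which give no treatment, sex or litter and enter adipocyte as cell type although whole adipose tissue was the source. The labels say that the samples are separate but not that they came from separate animals, so the p-values reflect sample-to-sample spread that could be technical.

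Lactate dehydrogenase interconverts pyruvate and lactate, and its tetramers mix an A subunit, typical of skeletal muscle, with a B subunit, typical of heart. Hexokinase traps glucose in the cell, and HK2 is the form that responds to insulin in muscle and fat, while HK1 is expressed in most tissues. Phosphofructokinase commits the sugar to glycolysis and is switched on by fructose 2,6-bisphosphate, which the PFKFB enzymes both make and break down. In fat, pyruvate from glycolysis feeds the making of fatty acids, and adipocytes also release lactate.

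The deposited totals ran from 45435480 to 60993349 units per library, and 1 sequenced fragment adds about 3.73 units. Levels are CPM (counts as a share of the TMM-scaled library total), which are not corrected for gene length, so levels of different genes are not ranked. Of 9 adipocyte markers 8 were in the table and none was at 0 in any group. Their summed level was 18706 to 21820 CPM in GS_80d, 12103 to 17151 CPM in YK_80d, 14399 to 28374 CPM in GS_9d and 11043 to 26608 CPM in YK_9d. The libraries also held transcripts of other tissues. The summed level of the 4 skeletal muscle markers in the table (of 11 listed) was 12160 CPM in YK_80d replicate 3, 10165 CPM in GS_9d replicate 3 and 2108 CPM in YK_9d replicate 1, against 1.61 to 82.3 CPM in the other 9 libraries. These 3 are called the muscle libraries. The 7 T and NK cell markers summed to 452 CPM in YK_80d replicate 2 and 663 CPM in YK_80d replicate 3, against 28.9 to 134 CPM in the other 10. The tissue was measured in bulk, so fewer cells of a type and less RNA per cell cannot be told apart.

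LDHB, which encodes the heart-type subunit of lactate dehydrogenase, separated the breeds at both ages. Its level was 247, 238 and 235 CPM in the GS_80d libraries, against 39.05, 28.1 and 22.2 CPM in the YK_80d libraries. At 9 d it was 253, 398 and 269 CPM in GS_9d, against 13.1, 17.0 and 46.7 CPM in YK_9d. Every GS library lay above every YK library. At 80 d LDHB was 8.07-fold higher in GS (log2 difference 3.01 ± 0.43 SE, adjusted p = 0.00325 by edgeR's quasi-likelihood test with Benjamini-Hochberg adjustment over 15425 genes, n = 3 each). The same fit gave an 11.99-fold higher level in GS at 9 d, the contrast from which the gene was picked.

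Within GS the LDHB levels were close, at 240.1 ± 6.12 CPM in GS_80d and 307 ± 79.3 CPM in GS_9d (SD, n = 3 each), and the GS_80d libraries all lay just below the GS_9d libraries. Within YK they were 29.8 ± 8.57 CPM in YK_80d and 25.6 ± 18.4 CPM in YK_9d, with overlapping groups. From high to low the group means thus run GS_9d, GS_80d, YK_80d and YK_9d, and the large step lies between the GS groups and the YK groups. The call at 80 d held when any 1 of the 6 libraries was left out (log2 difference 2.83 to 3.25, largest adjusted p = 0.0187, edgeR). It was lost when both YK_80d libraries with T cell transcripts were left out, with a log2 difference of 2.62 and an adjusted p = 0.0924 in edgeR, a fit with 1 YK_80d library left. The annotation used for gene names lists the symbol LDHB for 2 genes on different chromosomes, while the table has 1 ID, so reads shared with a near-identical copy may have been counted here or lost.

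LDHA, the muscle-type subunit, stayed in a narrow band in most libraries. It was at 86.01, 90.2 and 100.2 CPM in GS_80d, against 82.1, 97.6 and 695 CPM in YK_80d. It was at 79.4, 114 and 656 CPM in GS_9d and at 113, 93.4 and 110.2 CPM in YK_9d. Both libraries above 600 CPM were the ones with the most skeletal muscle transcripts, YK_80d replicate 3 and GS_9d replicate 3. In YK_9d replicate 1, which held less of them, LDHA was at 113 CPM, and in the 9 libraries other than these 3 it ran from 79.4 to 114 CPM with a median of 93.4 CPM. The breed difference of LDHA at 80 d did not pass the test (log2 difference -1.66 ± 0.91 SE, adjusted p = 0.302, edgeR). Without YK_80d replicate 3 the log2 difference was 0.024 (adjusted p = 0.999, edgeR).

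In the muscle libraries LDHB was lowest of its YK_80d group, at 22.2 CPM, in YK_80d replicate 3, and lowest of its YK_9d group, at 13.1 CPM, in YK_9d replicate 1. In GS_9d replicate 3 it was at 269 CPM, between the other GS_9d libraries. Without the 3 muscle libraries the log2 difference of LDHB at 80 d was 2.84, with an adjusted p = 0.0165 in edgeR.

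**Figure D1:**
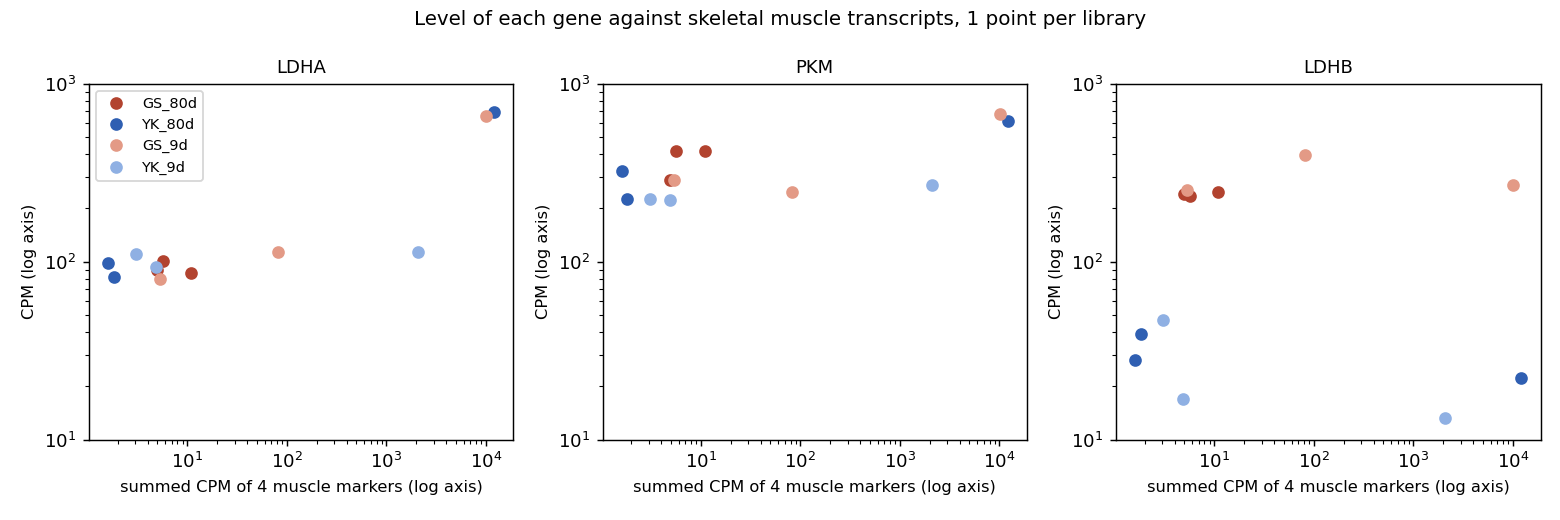
Level in CPM (vertical, log axis) of LDHA, PKM and LDHB against the summed CPM of 4 skeletal muscle markers (horizontal, log axis), with 1 point per library coloured by group. LDHA and PKM are highest in the 2 libraries with a muscle marker sum of 10165 CPM and 12160 CPM, while LDHB follows breed, at 235 CPM or more in every GS library and 46.7 CPM or less in every YK library.

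Of the hexokinase genes HK1 and HK2, the insulin-responsive HK2 was the one called between the breeds at 80 d. It was at 59.4, 80.1 and 78.8 CPM in GS_80d, against 17.2, 5.75 and 5.88 CPM in YK_80d. At 9 d it was at 3.63, 25.7 and 20.6 CPM in GS_9d and at 10.3, 14.4 and 10.1 CPM in YK_9d. The GS_80d libraries stood above all 9 others, and the highest of those was 25.7 CPM. At 80 d HK2 was 7.58-fold higher in GS (log2 difference 2.92 ± 0.63 SE, adjusted p = 0.0243, edgeR). At 9 d the groups overlapped, with a log2 difference of 0.52. Whether the breed difference itself changed with age was not tested.

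The call for HK2 depended on single libraries. It was lost without YK_80d replicate 2 (adjusted p = 0.0612, edgeR), YK_80d replicate 3 (0.0939), GS_80d replicate 1 (0.0613), GS_80d replicate 2 (0.0637) or GS_80d replicate 3 (0.0691), while the log2 difference ran from 2.66 to 3.64 over the 6 fits that left out 1 library. It was also lost without the 3 muscle libraries, at a log2 difference of 2.67 and an adjusted p = 0.134 in edgeR. Without both YK_80d libraries with T cell transcripts the difference was 2.08 (adjusted p = 0.265, edgeR), and without YK_80d replicate 1 it was 3.64 (adjusted p = 0.0159, edgeR).

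HK1 varied least of the 10 genes, with a 1.67-fold range over all 12 libraries. It was at 166, 144 and 158 CPM in GS_80d, against 99.3, 126 and 119 CPM in YK_80d. It was at 107, 125 and 105 CPM in GS_9d and at 99.7, 132 and 124 CPM in YK_9d. The 80 d groups did not overlap, but the breed difference did not pass the test (log2 difference 0.44 ± 0.18 SE, adjusted p = 0.157, edgeR).

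Of the phosphofructokinase genes, PFKP, named for platelets and expressed in many tissues, was the one called in the breed contrast at 80 d, lower in GS. It was at 32.3, 24.7 and 38.2 CPM in GS_80d, against 81.4, 64.2 and 85.4 CPM in YK_80d. It was at 43.6, 46.5 and 46.6 CPM in GS_9d, against 107, 65.6 and 81.2 CPM in YK_9d. Every GS library lay below every YK library. At 80 d the level in GS was 2.43-fold lower (log2 difference -1.28 ± 0.23 SE, adjusted p = 0.00867, edgeR), and at 9 d the fitted level was 1.85-fold lower.

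The call for PFKP at 80 d held when any 1 library was left out (log2 difference -1.42 to -1.13, largest adjusted p = 0.0424, edgeR). The marker sums of T and NK cells, smooth muscle and epithelium were also lower in GS at 80 d. Those of macrophages overlapped, at 129 to 275 CPM in GS_80d and 156 to 406 CPM in YK_80d. So did the endothelial (1248 to 1627 and 1197 to 2544 CPM) and erythroid (181 to 199 and 78.5 to 315 CPM) sums. The T and NK cell markers summed to 38.2 to 64.5 CPM in GS_80d and 90.0 to 663 CPM in YK_80d, with all 7 present. The 5 smooth muscle markers summed to 352 to 517 CPM in GS_80d and 799.6 to 1081 CPM in YK_80d. Of 6 epithelium markers 5 were in the table, and they summed to 7.99 to 13.1 CPM in GS_80d, where 1 was at 0, and 54.7 to 551 CPM in YK_80d. Without both YK_80d libraries with T cell transcripts the log2 difference was -1.36 with an adjusted p = 0.0538 in edgeR. At 9 d PFKP was also lower in GS. The T and NK cell markers summed to 48.0 to 134 CPM in GS_9d and 28.9 to 39.3 CPM in YK_9d. The smooth muscle markers summed to 183 to 612 CPM in GS_9d and 705 to 1033 CPM in YK_9d. Those of epithelium summed to 12.2 to 31.2 CPM in GS_9d and 53.8 to 203 CPM in YK_9d. The part of any of these cell types in the PFKP result was not tested.

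PFKL, the liver-type phosphofructokinase, was at 70.4, 64.3 and 64.6 CPM in GS_80d, against 97.0, 72.1 and 77.1 CPM in YK_80d. It was at 93.7, 122 and 88.3 CPM in GS_9d and at 96.6, 88.9 and 94.1 CPM in YK_9d. The GS_80d libraries were the 3 lowest of the 12. The breed difference at 80 d did not pass the test (log2 difference -0.30 ± 0.18 SE, adjusted p = 0.337, edgeR).

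Among PFKFB1, PFKFB2 and PFKFB3 the breed difference lay in PFKFB1, first described in liver and skeletal muscle. It was at 15.1, 22.4 and 31.5 CPM in GS_80d, against 6.56, 4.95 and 5.57 CPM in YK_80d. It was at 22.8, 22.6 and 26.3 CPM in GS_9d, against 1.71, 0.792 and 3.53 CPM in YK_9d. As with LDHB, every GS library lay above every YK library. At 80 d PFKFB1 was 4.04-fold higher in GS (log2 difference 2.02 ± 0.44 SE, adjusted p = 0.0227, edgeR), and the fitted level at 9 d, the contrast that picked the gene, was 11.9-fold higher.

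The PFKFB1 means in GS were 23.0 ± 8.23 CPM in GS_80d and 23.9 ± 2.07 CPM in GS_9d (SD, n = 3 each), with overlapping libraries. In YK they were 5.69 ± 0.813 CPM in YK_80d and 2.01 ± 1.39 CPM in YK_9d, and the YK_80d libraries all lay above the YK_9d libraries. The counts were low, from 10.2 to 504 fragments per library. The call at 80 d was lost without YK_80d replicate 2 (adjusted p = 0.0526, edgeR), YK_80d replicate 3 (0.0707), GS_80d replicate 2 (0.0546) or GS_80d replicate 3 (0.0775), with log2 differences from 1.73 to 2.25 over the 6 fits that left out 1 library. Without the 3 muscle libraries it was 2.0004 with an adjusted p = 0.105 in edgeR, and without both YK_80d libraries with T cell transcripts it was 1.81 with an adjusted p = 0.222.

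PFKFB3, an inducible form found in many cell types and in tumours, varied more between libraries of a group than between groups. It was at 143, 145 and 435 CPM in GS_80d, against 359.6, 139 and 194 CPM in YK_80d. It was at 178, 288 and 294 CPM in GS_9d and at 122, 178 and 292 CPM in YK_9d. All groups overlapped, and the log2 difference between the breeds at 80 d was 0.060 ± 0.49 SE (adjusted p = 0.961, edgeR).

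PFKFB2, known as the heart form, was low everywhere, with 12.9 to 48.5 fragments per library. Its level was 1.40, 1.31 and 3.04 CPM in GS_80d, against 3.17, 2.52 and 0.993 CPM in YK_80d, and 0.973 to 2.49 CPM over the 6 libraries at 9 d. The groups overlapped, and the log2 difference between the breeds at 80 d was -0.22 ± 0.60 SE (adjusted p = 0.871, edgeR). The SE was larger than the difference, and how large a difference could have been detected was not tested.

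PKM encodes pyruvate kinase of muscle and most other tissues, whose splice forms the gene counts do not separate. It was at 419, 286 and 419 CPM in GS_80d, against 226, 321 and 613 CPM in YK_80d. It was at 287, 247 and 676 CPM in GS_9d and at 271, 223 and 225 CPM in YK_9d. As with LDHA, the 2 highest libraries were those with the most muscle transcripts. The 9 libraries other than the muscle libraries held 223 to 419 CPM. The log2 difference between the breeds at 80 d was -0.046 ± 0.41 SE (adjusted p = 0.964, edgeR), and it was 0.44 without YK_80d replicate 3.

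**Figure D2:**
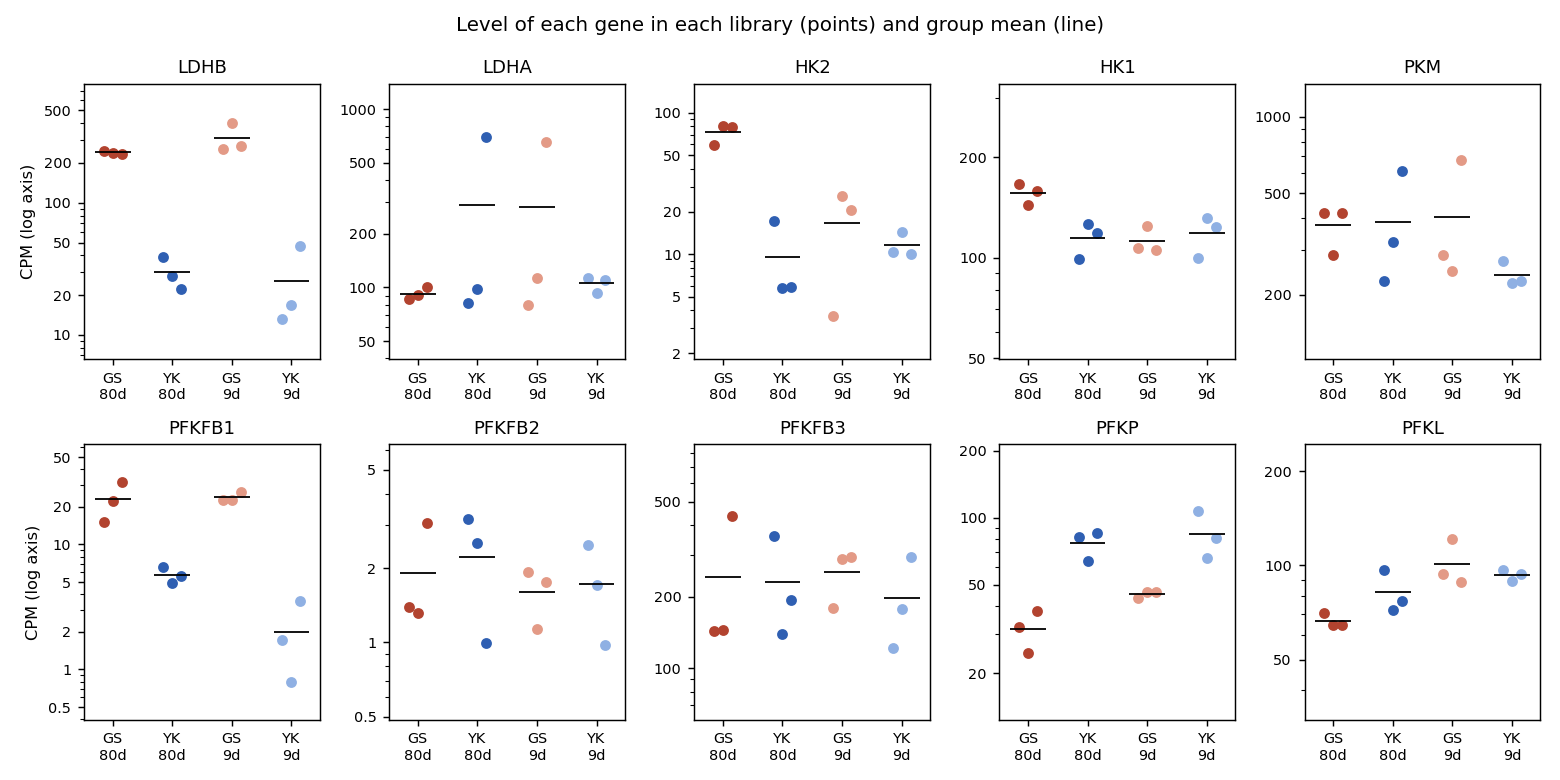
Level in CPM (vertical, log axis, each panel with its own range) of the 10 genes in each of the 12 libraries, with the group mean as a line. LDHB and PFKFB1 lie higher and PFKP lower in every GS library than in any YK library, HK2 is highest in the 3 GS_80d libraries, and LDHA and PKM each have 1 high library in YK_80d and in GS_9d.

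At 80 d the breed contrast thus called 4 of the 10 genes, LDHB, HK2 and PFKFB1 higher and PFKP lower in GS. Over all genes tested 6.12% were called, 3.17% higher and 2.95% lower. For 6 of the 10, the same 4 with HK1 and PFKL, the GS_80d and YK_80d libraries did not overlap, against 31.4% of all genes. LDHB and PFKFB1 were chosen by their breed difference at 9 d, and the other called genes were HK2 and PFKP. All 10 were chosen with earlier results of these data known, so no excess over all genes is read from either count. The median log2 difference of the 10 genes was 0.0073, against -0.020 over all genes. Of the 4 calls, 2 remained without the 3 muscle libraries (LDHB and PFKP) and none remained without both YK_80d libraries with T cell transcripts. At 9 d the GS_9d and YK_9d libraries were apart for 3 of the 10, LDHB and PFKFB1 with GS above and PFKP with GS below, against 18.5% of all genes. Nothing is read from that count, since this contrast chose the first pair.

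The ratio of the counts of 2 related genes within a library depends neither on library scaling nor on gene length when it is compared between libraries. LDHB over LDHA was 2.87, 2.64 and 2.34 in GS_80d, against 0.476, 0.287 and 0.0319 in YK_80d. At 9 d it was 3.19, 3.50 and 0.411 in GS_9d, against 0.116, 0.182 and 0.424 in YK_9d. It was 2.34 or more in 5 of the 6 GS libraries and 0.476 or less in all 6 YK libraries. The exception, GS_9d replicate 3, is a muscle library, with LDHA at 656 CPM. The lowest ratios of the YK groups, 0.0319 in YK_80d replicate 3 and 0.116 in YK_9d replicate 1, are in the other 2 muscle libraries. In YK_80d replicate 3 LDHA was at 695 CPM and LDHB at 22.2 CPM. In YK_9d replicate 1 LDHA was at 113 CPM, close to the rest of its group, and LDHB was lowest of its group, at 13.1 CPM. The part of muscle tissue in these ratios was not tested. The mean log2 ratio at 80 d was higher by 3.998 in GS, a 15.98-fold difference, by 2.82 without YK_80d replicate 3 and by 4.77 without YK_80d replicate 1.

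HK2 over HK1 was 0.358, 0.557 and 0.498 in GS_80d, against 0.173, 0.0455 and 0.0496 in YK_80d, a 6.34-fold higher geometric mean (log2 difference 2.66, and 3.29 without YK_80d replicate 1). In the 6 libraries at 9 d it ran from 0.0340 to 0.206. PFKP over PFKL was 0.459, 0.384 and 0.590 in GS_80d, against 0.840, 0.890 and 1.11 in YK_80d, a 1.99-fold lower geometric mean. It was 0.382 to 0.527 in GS_9d and 0.738 to 1.10 in YK_9d, so the breeds stood apart in this ratio at both ages.

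PFKFB1 over PFKFB3 was 0.106, 0.155 and 0.0726 in GS_80d, against 0.0182, 0.0355 and 0.0287 in YK_80d, a 3.997-fold higher geometric mean. At 9 d it was 0.0784 to 0.128 in GS_9d and 0.00445 to 0.0141 in YK_9d. PFKFB2 over PFKFB3 overlapped in all groups and ran from 0.00333 to 0.0205. At 80 d the breeds did not overlap in 4 of the 5 ratios. The exact permutation test, two-sided, gave p = 0.1 for each of these 4 (adjusted p = 0.125 over the 5 ratios), the smallest p that 3 against 3 libraries allow, and p = 0.9 for PFKFB2 over PFKFB3.

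**Figure D3:**
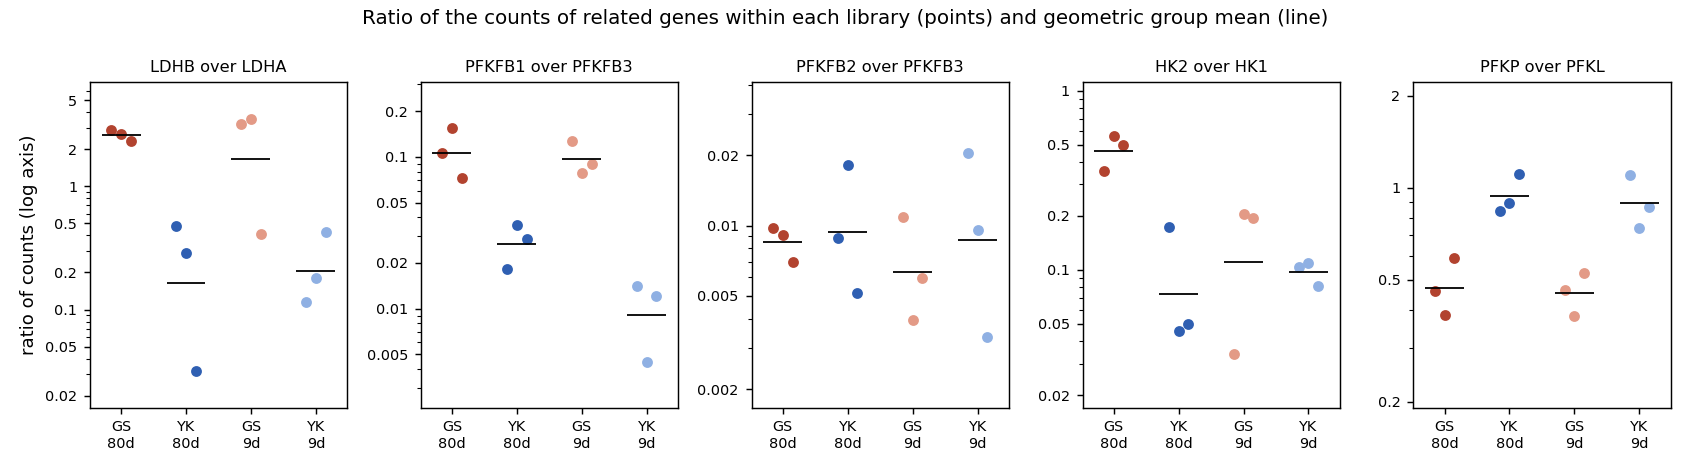
Ratio of the counts of 2 related genes within each library (vertical, log axis), with the geometric mean of each group as a line. LDHB over LDHA, PFKFB1 over PFKFB3 and HK2 over HK1 are higher and PFKP over PFKL is lower in all 3 GS_80d libraries than in any YK_80d library, while PFKFB2 over PFKFB3 overlaps.

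Age was compared within each breed for the 8 genes other than LDHB and PFKFB1. In YK, 80 d against 9 d, edgeR called none of the 8, none had an unadjusted p under 0.05, and DESeq2 called none either. Over all genes edgeR called 1.21%, and 2080 of 15425 had an unadjusted p under 0.05. The log2 differences ran from -0.27 ± 0.59 SE for HK2 to 1.47 ± 0.91 SE for LDHA, with adjusted p-values of 0.919 and 0.564, and that of LDHA was -0.21 without YK_80d replicate 3.

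In GS, 80 d against 9 d, edgeR called none of the 8 either, against 2.65% of all genes. Its unadjusted p was under 0.05 for 4 of the 8, and for 3079 of the 15425 genes tested. HK2 averaged 72.8 ± 11.6 CPM in GS_80d and 16.6 ± 11.5 CPM in GS_9d (SD, n = 3 each; log2 difference 2.13 ± 0.61 SE, adjusted p = 0.0877, edgeR). PFKL averaged 66.5 ± 3.43 CPM in GS_80d and 101 ± 17.9 CPM in GS_9d (log2 difference -0.61 ± 0.18 SE, adjusted p = 0.0942, edgeR). For HK1 and PFKP the log2 differences were 0.47 ± 0.18 SE and -0.52 ± 0.22 SE, with adjusted p-values of 0.170 and 0.220 in edgeR. The GS_80d and GS_9d libraries did not overlap for these 4 genes, against 33.7% of all genes. DESeq2, which called 1530 genes in this contrast where edgeR called 409, called HK2 higher (adjusted p = 0.00517) and PFKL lower (adjusted p = 0.0189) at 80 d. The 3 GS_80d libraries were also the closest to each other of any group, with a chi-square per degree of freedom of 35.8 to 48.1 between pairs, against at least 86.5 for pairs of other groups.

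Of 20 other glycolysis genes listed 18 were tested in the breed contrast at 80 d, and 1 was called, higher in GS. ALDOC, the brain-type aldolase that splits fructose 1,6-bisphosphate, averaged 1041 ± 143 CPM in GS_80d and 82.2 ± 33.7 CPM in YK_80d (SD, n = 3 each; log2 difference 3.66 ± 0.58 SE, adjusted p = 0.00597, edgeR). It was at 325, 842 and 423 CPM in GS_9d and at 80.1, 103 and 337 CPM in YK_9d, so at 9 d the breeds overlapped. The call for ALDOC held whichever library was left out but not without both YK_80d libraries with T cell transcripts (adjusted p = 0.124, edgeR).

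The median log2 difference of the 18 genes was -0.52, with 3 positive and 15 negative. Without the 3 muscle libraries it was 0.16, with 12 positive and 6 negative. PFKM, the muscle-type phosphofructokinase, was at 254 CPM in YK_80d replicate 3 and 175 CPM in GS_9d replicate 3, and ENO3, the muscle enolase, reached 2079 CPM in YK_80d replicate 3.

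Of 20 listed genes that handle lactate and pyruvate after glycolysis 16 were in the table and tested, and 7 were called at 80 d, all higher in GS. Of the 16 differences 15 were positive, and the median was 0.84. Over all genes 7500 of 15425 were positive, 3.17% were called higher and the median was -0.020. This list, too, was chosen with earlier results of these data known, so no excess over all genes is read from these counts. The calls include 5 genes of the pyruvate dehydrogenase complex, which turns pyruvate into acetyl-CoA. PDHB, of its E1 component, averaged 227 ± 33.9 CPM in GS_80d and 101 ± 15.3 CPM in YK_80d (SD, n = 3 each; log2 difference 1.17 ± 0.23 SE, adjusted p = 0.0144, edgeR). PDHA1, also of E1, was at 733, 453 and 609 CPM in GS_80d, against 237 CPM in each of the YK_80d libraries (log2 difference 1.33 ± 0.27 SE, adjusted p = 0.0155, edgeR). DLAT, the E2 component, averaged 93.6 ± 7.58 CPM in GS_80d and 42.6 ± 4.60 CPM in YK_80d (log2 difference 1.14 ± 0.23 SE, adjusted p = 0.0165, edgeR).

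The other 4, named after their values were seen, are DLD, the E3 component, with a log2 difference of 0.96, PDHX, which binds E3, with 1.39, PDP2, a phosphatase that activates the complex, with 1.58, and LDHD, the dehydrogenase of D-lactate, with 2.31. Their adjusted p-values were 0.0296, 0.0291, 0.0438 and 0.0228 in edgeR. These calls depended on single libraries: 0 to 4 of the 7 were made when 1 library was left out, 0 of them without GS_80d replicate 1, 4 each without YK_80d replicate 1, YK_80d replicate 2 or GS_80d replicate 2 and 2 each without YK_80d replicate 3 or GS_80d replicate 3. Without the 3 muscle libraries 1 was made, and the median was 0.99. Without both YK_80d libraries with T cell transcripts 2 were made, PDP2 and LDHD, and the 5 genes of the complex were not called. In that fit the log2 difference of PDP2 was 2.86 and that of LDHD 3.71, and LDHD was at 2.94 without YK_80d replicate 3 and 2.95 without the 3 muscle libraries. The adipocyte marker sums stood higher in GS_80d, at 18706 to 21820 CPM, than in YK_80d, at 12103 to 17151 CPM. Of the 8 adipocyte markers 2 were called higher, against 3.17% of all genes. The part of adipocytes in the results for LDHB, HK2, PFKFB1, ALDOC and the pyruvate dehydrogenase genes was not tested.

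In the list of gluconeogenesis, the path that runs glycolysis backwards, 6 of 7 genes were tested. The median log2 difference at 80 d was 0.015, and 1 was called: PCK2, the mitochondrial phosphoenolpyruvate carboxykinase, averaged 9.52 ± 1.82 CPM in GS_80d and 24.4 ± 4.29 CPM in YK_80d (SD, n = 3 each; log2 difference -1.36 ± 0.34 SE, adjusted p = 0.0359, edgeR). That call was made in 1 of the 6 fits that left out 1 library, the one without YK_80d replicate 2, with adjusted p-values up to 0.130 in edgeR. Of 15 genes of the hypoxia response 13 were tested, none was called or had an unadjusted p under 0.05, and the median was -0.26. Over all genes tested, 3670 of 15425 had an unadjusted p under 0.05 in edgeR.

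**Figure D4:**
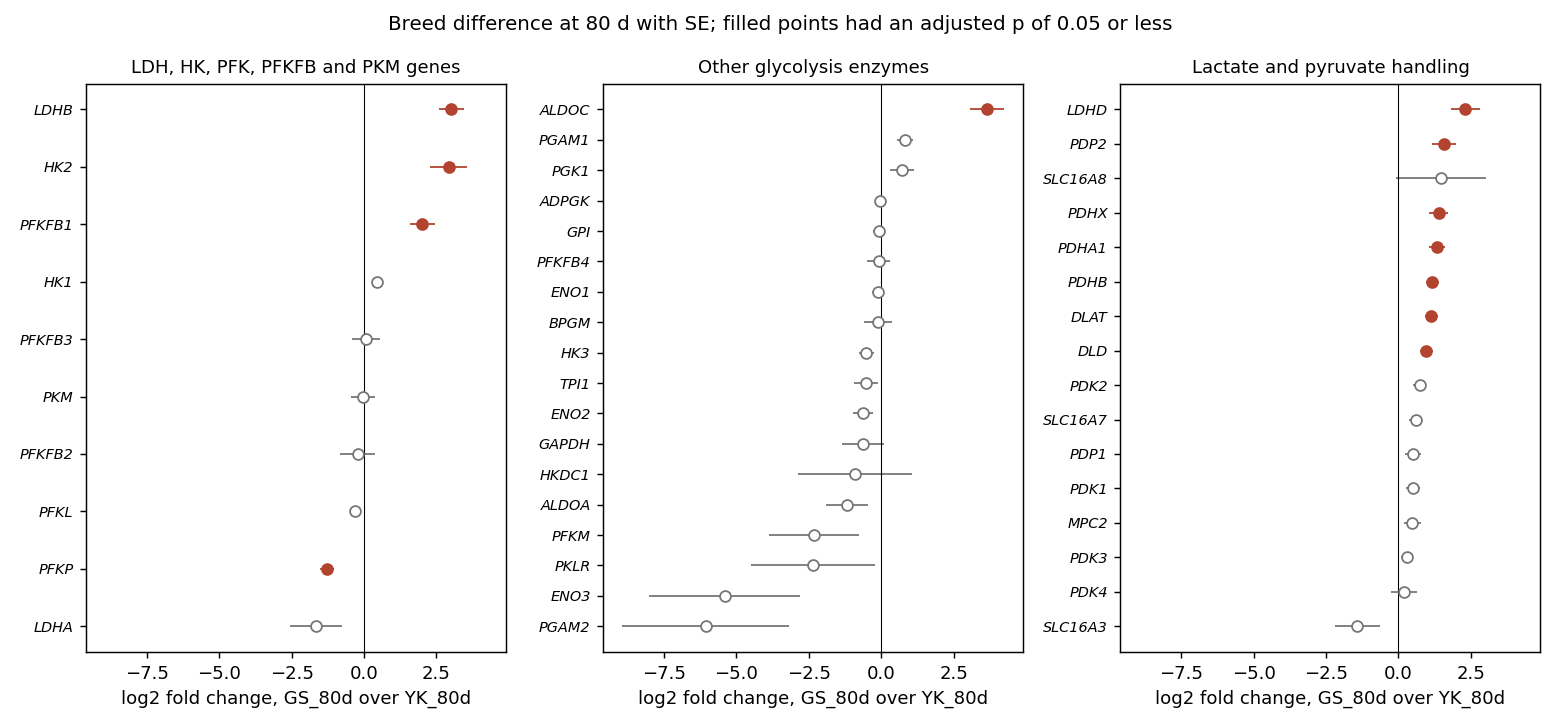
Log2 fold change of GS_80d over YK_80d with its SE (horizontal) for the 10 genes, the other glycolysis genes and the genes of lactate and pyruvate handling, each a row. Filled points had an adjusted p of 0.05 or less in edgeR, and they lie to the right for LDHB, HK2, PFKFB1, ALDOC and 7 genes of lactate and pyruvate handling and to the left for PFKP.

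With age in GS, the same lists gave 1 call. PCK2 had a log2 difference of -1.44 ± 0.34 SE (adjusted p = 0.0434, edgeR). That call was lost whichever of the 6 libraries was removed, at adjusted p-values of 0.0730 to 0.157 in edgeR. The medians were -0.18 for glycolysis, 0.30 for lactate and pyruvate, -0.35 for gluconeogenesis and -0.19 for hypoxia, the first of which was 0.049 without the 3 muscle libraries. With age in YK no gene of the 4 lists was called. The medians there were 0.73, -0.21, -0.30 and -0.019 in the same order, the first of which was -0.21 without the 3 muscle libraries, with 7 positive and 11 negative.

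The genes whose levels ran most like those of LDHB over the 12 libraries were sought by Pearson's r of log2 CPM among 9604 genes with a symbol. They were TPGS2 (r = 0.970), ACO1 (0.963), DCAF11 (0.958), MCCC2 (0.957) and IDH1 (0.956). ACO1, the cytosolic aconitase, averaged 546 CPM in GS_80d, 161 CPM in YK_80d, 454 CPM in GS_9d and 157 CPM in YK_9d. IDH1, the cytosolic isocitrate dehydrogenase, averaged 609.8, 219, 644 and 214 CPM in the same order of groups, and MCCC2, of leucine breakdown, 205, 38.7, 157 and 51.0 CPM. All 3 lay higher in each GS library than in any YK library of the same age, as LDHB did. Their choice by likeness to LDHB over these same libraries fixes much of this, so it is given as a description.

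Most like PFKFB1 were CTSC (r = 0.936), STYX (0.934), NARS2 (0.926), ARHGAP22 (0.924) and LDHB itself (0.920). CTSC, a lysosomal protease, averaged 205 CPM in GS_80d, 132 CPM in YK_80d, 224 CPM in GS_9d and 102 CPM in YK_9d. The 12 points are 4 groups of 3 libraries, so the coefficients carry the differences between groups and are given without a test. LDHB and PFKFB1 were both chosen for a higher level in GS at 9 d, which fixes much of the likeness between them.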

How the data were processed

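RNA of 12 samples of pig back fat was extracted with TRIzol and made into libraries with a stranded KAPA kit, per the labels' protocols. The expected counts that the authors deposited are whole numbers, 1 per gene and library, with no scaling between libraries. Not given in the sources used here were the aligner, the counter, the annotation and whether counting used strand. Overlapping and antisense genes may therefore share reads. All IDs are pig IDs, but the 1 build in the submitters' processing notes is mm10, of the mouse, and no coordinates are printed. Low values pile up near multiples of 3.73 (3354 values equal 4, against 1233 equal to 3 and 795 equal to 5), so 1 fragment adds about 3.73 units. Values were tested as deposited.

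Symbols came from the supplied gene tables (RefSeq, Sscrofa11.1), which name 14692 of 24358 IDs. Genes passing edgeR's filterByExpr (15425, of which 12779 have a symbol) were fitted in R 4.3.3 with edgeR 4.0.16, which used limma 3.58.1 and statmod 1.5.0: TMM factors (0.888 to 1.10), a robust quasi-likelihood model over all 12 libraries with the 4 groups as terms, two-sided tests, Benjamini-Hochberg adjustment over all genes tested and a threshold of 0.05. The fit left 8 residual degrees of freedom. The SE was taken from the log2 fold change and the square root of its F statistic. Log2 CPM used a prior of 2 units, and likeness was sought among genes with a mean of at least 2 log2 CPM. Ratios were compared by exact permutation over the 6 libraries at 80 d. The procedure was tested on simulated data. Other settings were DESeq2 1.42.0, RLE scaling, no filter, values divided by the step, a replicate block, the 6 libraries of a comparison alone, and leaving out libraries.

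The 10 genes and the gene lists were chosen with earlier results of these data known, and 1 gene of the glycolysis list is not reported here. Named were all 10 genes, up to 3 called genes per list and comparison with the smallest adjusted p, and the 5 genes most like LDHB and PFKFB1; DLD, PDHX, PDP2, LDHD, PFKM and ENO3 were named after their values were seen.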

Additional observations from a re-analysis of the deposited data

How the results depend on the processing

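For the breed contrast at 80 d, 944 genes passed in edgeR, 2274 in DESeq2, 290 without the 3 muscle libraries, 242 without both YK_80d libraries with T cell transcripts, and 255 to 916 when 1 library was left out. For age in YK, 186 passed in edgeR, 881 in DESeq2, 51 without the muscle libraries, 14 without YK_9d replicates 2 and 3, the libraries with skin transcripts, 46 in a fit of the 6 YK libraries alone, and 27 to 245 when 1 library was left out. For age in GS, 409 passed in edgeR, 1530 in DESeq2, 150 without the muscle libraries, 1055 in a fit of the 6 GS libraries alone, and 78 to 122 when 1 library was left out. Fits without libraries hold fewer samples. The cause of the other changes was not tested.

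Of the 10 genes, 4 were called for breed at 80 d, against 2 without the muscle libraries, 0 without both YK_80d libraries with T cell transcripts, and 2 to 4 when 1 library was left out. For age in GS edgeR called 0 of 8 and DESeq2 2. For age in YK 0 of 8 were called under every alternative run.

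Deviations from the group means correlated at r from -0.22 to 0.24 between libraries of the same number in different groups. Low correlations cannot exclude pairing, so whether the numbers pair the samples is not known. With the replicate number as a block, 808 genes passed for breed at 80 d, 65 for age in YK and 320 for age in GS, and 3 of the 10 genes were called for breed at 80 d, all but HK2 (adjusted p = 0.0547, edgeR). With the block PCK2 also missed the threshold, for breed at 80 d (adjusted p = 0.0515, edgeR) and for age in GS (adjusted p = 0.0637). With it, the log2 difference of PFKFB3 for breed at 80 d was -0.14, that of PKM 0.039, and that of PKM for age in GS 0.013.

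The 4 genes called at 80 d kept their direction under every alternative run. The sign turned only for genes that did not pass the test. Without the muscle libraries the log2 difference for breed at 80 d was 0.036 for LDHA, -0.052 for PFKFB3 and 0.45 for PKM, for age in YK it was -0.18 for LDHA, and for age in GS it was 0.046 for PFKFB3 and 0.49 for PKM. Without both YK_80d libraries with T cell transcripts it was 0.17 for LDHA, -0.58 for PFKFB3 and 0.73 for PKM. Without both YK_9d libraries with skin transcripts it was, for age in YK, -0.16 for PFKFB2 and 0.20 for HK1.

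When 1 library was left out, the log2 differences for breed at 80 d ran from -2.10 to 0.024 for LDHA, -0.72 to 0.11 for PFKFB2, -0.68 to 0.53 for PFKFB3 and -0.32 to 0.44 for PKM. For age in YK they ran from -0.21 to 1.92 for LDHA, -0.22 to 0.61 for PFKFB3, -0.13 to 0.074 for HK1 and -0.27 to 0.089 for PFKP. For age in GS they ran from -0.23 to 0.49 for PFKFB2, -0.80 to 0.22 for PFKFB3 and -0.36 to 0.51 for PKM. The log2 difference in PFKFB2 over PFKFB3 ran from -0.57 to 0.34, and those of the other 4 ratios kept their sign. Depth was lowest for PFKFB1 and PFKFB2, with as few as 10.2 and 12.9 fragments in a library.

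The list medians and the ranges without the 3 muscle libraries were added after seeing the data. Those fits leave YK_80d, GS_9d and YK_9d with 2 libraries each.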
